A study of Mus musculus with 6 samples.

Results

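The genes described here belong to the Wnt, Notch and Hedgehog signalling pathways and were taken from the gene table by symbol: Wnt ligands, frizzled receptors, Lrp5 and Lrp6, SFRP and DKK antagonists, axins and TCF/LEF factors, Notch receptors and their ligands, HES and HEY factors, and Hedgehog receptors and GLI factors. The rule took 48 of the 17313 genes, 29 of them in the Wnt pathway, 14 in Notch and 5 in Hedgehog. RNA was sequenced from macrophages grown in culture from the bone marrow of mice on the C57BL/6 background. LLC1 tumour cells, from a Lewis lung carcinoma of the mouse, had been injected into a vein of every animal, and marrow was taken on day 20. The 3 WT libraries came from Hdac2fl/fl mice, which carry floxed Hdac2 and no Cre. The 3 KO libraries came from Hdac2fl/fLysMCre mice, in which Cre is placed in the Lyz2 gene and is active in myeloid cells, so that other cells of the marrow keep Hdac2. Hdac2 encodes a class I histone deacetylase, and the comparison asks what its inactivation does to transcripts of macrophages raised from mice with tumours. Age and sex are not given in the sources used here, and whether each library came from a separate mouse is not stated, so every p-value refers only to the scatter among these 6 libraries, part or all of which may be technical.

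In canonical Wnt signalling a secreted Wnt protein binds a frizzled receptor together with LRP5 or LRP6, the axin-based complex that destroys beta-catenin is shut off, and beta-catenin works with TCF/LEF factors on target genes. In Notch signalling a ligand on a neighbouring cell leads to cleavage of the receptor, whose inner part joins RBPJ and switches on HES and HEY repressor genes. In Hedgehog signalling the receptor Ptch1 holds back Smo at the primary cilium until a ligand binds, after which GLI factors change from repressors to activators. Macrophages use Notch1 and Notch2 and several frizzled receptors, while marrow stromal cells are a known source of Wnt ligands, Wnt antagonists and Hedgehog components.

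Values are read numbers per gene after a rescaling of each library and rounding by the submitters, called scaled counts here. Library totals were nearly equal, from 5704313 to 5837994. Hdac2 itself was at 534, 482 and 518 in WT against 392, 387 and 375 in KO, without overlap, and the two-sided exact permutation test gave p = 0.1, the smallest that 3 against 3 allows. Macrophage markers were high in every library, with Adgre1, the F4/80 antigen, at 1946 to 2493 and Csf1r, the M-CSF receptor, at 2504 to 2888. Genes of fibroblasts and marrow stroma were also high. Col1a1, a collagen chain, was at 3547, 1798 and 1858 in WT against 3953, 3914 and 3767 in KO. The 17 stromal markers summed to 16474, 7128 and 7880 in WT 1, WT 2 and WT 3 and to 21301, 19474 and 16505 in KO, so that WT 1 lay near the KO libraries. Xist, the RNA of the inactive X chromosome, split the libraries the same way, at 5243, 0 and 74 in WT against 4726, 4997 and 3298 in KO. WT 1 also held reads of the Y-linked gene Uty, at 23 against 179 in WT 2 and 432 in WT 3. Uty was at 0 in all KO libraries, but the Y-linked genes Ddx3y, Kdm5d and Eif2s3y were at 10, 5 and 4 in KO 1. In KO 2 and KO 3 these genes were at 0, except for Eif2s3y at 1 in KO 2. These are bulk libraries, in which fewer cells of a type and less RNA per cell cannot be told apart.

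In 19 of the 37 tested members WT 1 lay above WT 2 and WT 3 and below every KO library; the other 18 overlapped between the groups. Of the 48 members, 37 reached 10 scaled counts in 3 or more libraries and were tested, and Gli2 passed this filter through the KO libraries alone. With limma on all 6 libraries, no member passed an adjusted p under 0.05 in either direction, against 0% of all 13260 tested genes, and the smallest adjusted p of a member was 0.158. At an unadjusted p under 0.05, 23 members were higher in KO, against 14.7% of all tested genes, and 1 was lower, against 9.68%. In 19 tested members the lowest KO value exceeded the highest WT value, against 16.1% of all tested genes, and in 0 the groups were separated the other way, against 13.4%. The median log2 difference, KO minus WT on the log2(scaled count + 1) scale, was 1.34 over the 37 tested members and -0.0046 over all tested genes. Without WT 1, 20 members passed the adjusted threshold as higher, against 12.8% of all tested genes, and 1, Fzd7, as lower, against 5.07%. In that comparison WT 2 and WT 3, the libraries with little Xist RNA and low stromal markers, stand alone against KO, so genotype and these differences between libraries cannot be told apart. With all 6 libraries the groups are also uneven, with Xist at 0 and 74 in WT 2 and WT 3 but at 5243 in WT 1 and 3298 to 4997 in KO. Genotype and these differences cannot be fully told apart there either. With WT 1 as the only WT library, 7 members were higher at an unadjusted p under 0.05, against 5.17% of all tested genes, and 0 were lower, against 1.06%. In that fit 0 members passed after adjustment, and the median difference was 0.42 over the members and -0.0017 over all tested genes. WT 2 and WT 3 were the lowest libraries in 26 of the 37 members (70.3%), against 20.9% of all tested genes, and the intermediate place of WT 1 was found in 51.4% of the members, against 12.5% of all tested genes. The part of the stromal markers in these differences was not tested.

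**Figure D1:**
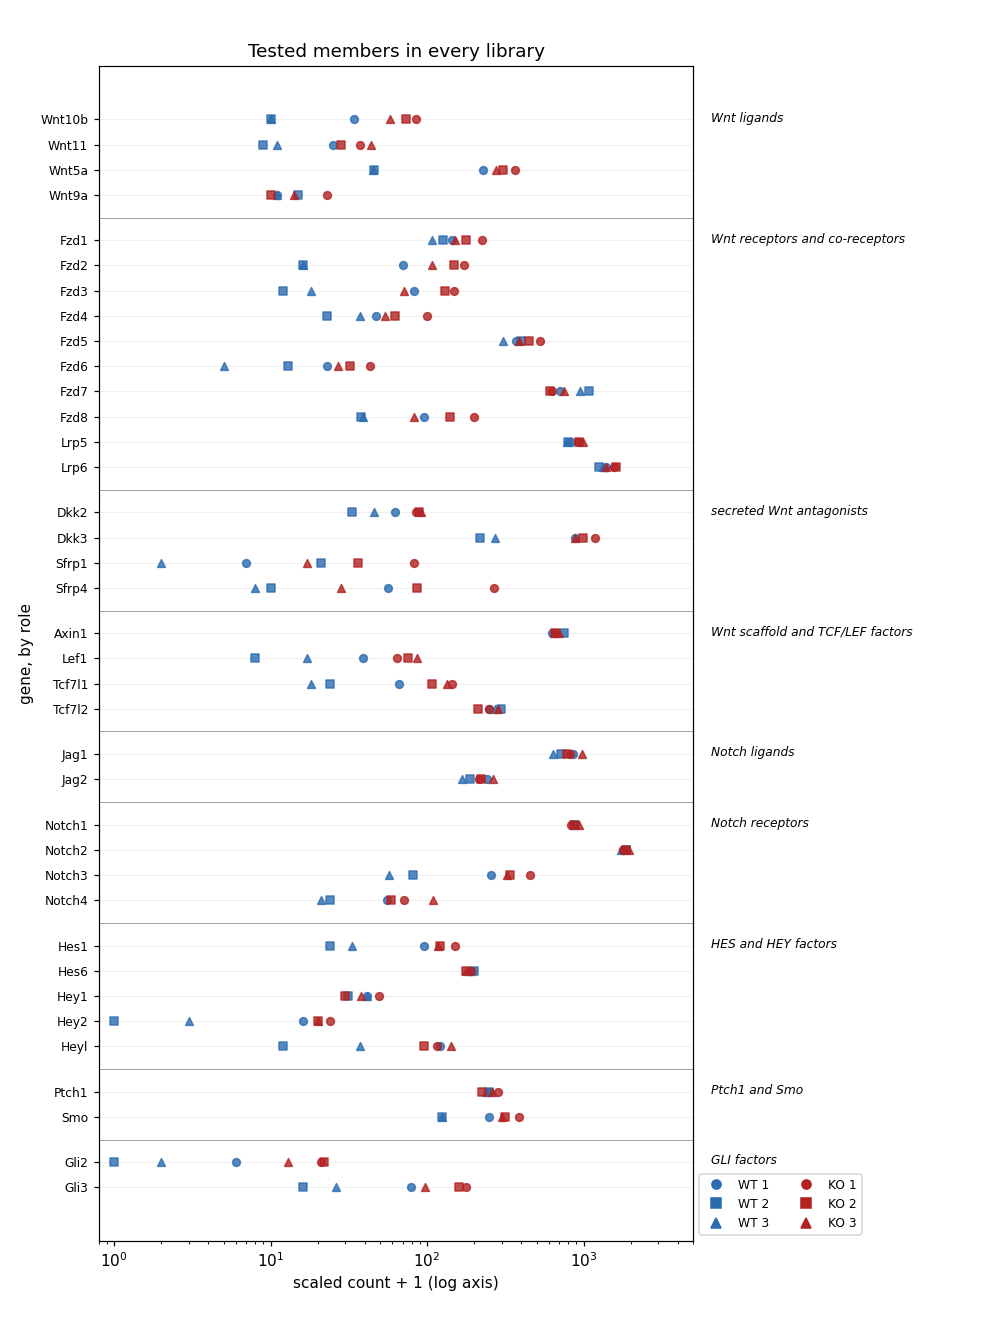
Scaled count plus 1 of each of the 37 tested members on a log axis, 1 point per library (blue WT, red KO, the symbol gives the replicate number), grouped by role. Genes such as Notch2, between 1743 and 1943, show all 6 points together, while Fzd2 shows WT 2 and WT 3 at 15, WT 1 at 69 and KO at 106 to 171.

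The level of a gene went along with this division. Among tested members with a mean value below 100, 16 of 20 were higher at an unadjusted p under 0.05, against 25.3% of all genes at that level, and 0 were lower, against 4.47%. Among those with a mean of at least 100, 7 of 17 were higher, against 11.0%, and 1 was lower, against 11.5%. The members' median log2 difference was 1.84 in the first class and 0.22 in the second. The first class includes Gli2, which passed the filter through the KO libraries alone.

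Promoters are shown for 6 members because the study's title names SP1, a factor that binds GC boxes, and because they contrast 4 members that were high in KO (Dkk2, Gli2, Notch3 and Smo) with the frizzled receptor gene that was low (Fzd7) and a gene that was level (Notch2). RefSeq windows (GRCm38.p6) of 300 bases, from 250 before to 50 after a gene's start, were given for 31 of the 48 members. The 250 bases before the start are printed on the strand of the gene, and capitals mark the GC box, GGGCGG on either strand, where neighbouring matches may overlap. Dkk2 lies at chr3:132085042-132085291 (plus strand), Gli2 at chr1:119053620-119053869 (minus), Notch3 at chr17:32166891-32167140 (minus), Smo at chr6:29735247-29735496 (plus), Fzd7 at chr1:59481897-59482146 (plus) and Notch2 at chr3:98013288-98013537 (plus).
Dkk2: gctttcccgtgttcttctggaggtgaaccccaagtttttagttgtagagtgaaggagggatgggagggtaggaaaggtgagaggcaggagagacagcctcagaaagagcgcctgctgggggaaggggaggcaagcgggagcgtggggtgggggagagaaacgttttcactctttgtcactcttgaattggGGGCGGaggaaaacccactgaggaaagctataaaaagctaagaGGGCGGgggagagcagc
Gli2: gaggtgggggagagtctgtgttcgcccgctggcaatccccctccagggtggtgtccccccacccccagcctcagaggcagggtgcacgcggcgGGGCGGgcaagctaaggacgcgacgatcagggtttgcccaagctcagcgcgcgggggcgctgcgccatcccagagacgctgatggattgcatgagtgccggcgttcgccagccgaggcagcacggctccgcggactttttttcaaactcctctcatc
Notch3: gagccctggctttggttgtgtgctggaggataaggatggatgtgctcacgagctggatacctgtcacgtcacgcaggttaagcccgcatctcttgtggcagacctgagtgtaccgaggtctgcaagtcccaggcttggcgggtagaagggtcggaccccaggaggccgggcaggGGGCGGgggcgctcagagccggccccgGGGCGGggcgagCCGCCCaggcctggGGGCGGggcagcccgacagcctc
Smo: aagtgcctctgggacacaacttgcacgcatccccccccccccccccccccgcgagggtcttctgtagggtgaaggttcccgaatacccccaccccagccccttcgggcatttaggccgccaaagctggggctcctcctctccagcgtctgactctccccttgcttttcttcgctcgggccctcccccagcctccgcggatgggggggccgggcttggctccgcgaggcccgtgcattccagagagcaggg
Fzd7: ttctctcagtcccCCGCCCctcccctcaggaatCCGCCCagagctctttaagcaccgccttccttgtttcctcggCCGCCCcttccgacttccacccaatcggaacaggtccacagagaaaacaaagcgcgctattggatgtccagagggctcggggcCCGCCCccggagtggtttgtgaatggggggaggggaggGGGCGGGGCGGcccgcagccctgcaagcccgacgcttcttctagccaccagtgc
Notch2: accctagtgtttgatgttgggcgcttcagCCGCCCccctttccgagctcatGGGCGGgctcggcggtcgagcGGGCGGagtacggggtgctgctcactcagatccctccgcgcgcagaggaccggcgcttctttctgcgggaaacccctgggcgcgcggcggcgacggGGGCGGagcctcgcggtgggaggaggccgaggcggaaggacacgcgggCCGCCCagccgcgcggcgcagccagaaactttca

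The printed stretches hold 2 GC boxes for Dkk2, 1 for Gli2, 4 for Notch3, 0 for Smo, 6 for Fzd7 and 5 for Notch2. Over the whole windows a GC box was found in 29 of 41 member windows (70.7%), against 35.7% of all 32851 promoter windows, and member windows were richer in G and C, with a median of 67.3% against 52.7%. It was present in 12 of 17 windows (70.6%) of members higher at an unadjusted p under 0.05 and in 9 of 12 windows (75%) of the other tested members. The TCF/LEF core CTTTGA was in 12.2% of member windows against 16% of all, the RBPJ core TGGGAA in 17.1% against 25.6%, and the GLI core CCACCCA in 2.44% against 9.3%, each on either strand. A gene can have several windows, and a match is a string of letters, not a bound site.

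Wnt ligands were led by Wnt5a, which acts mainly outside the beta-catenin route, at 40.0 ± 5.84 scaled counts per kilobase of exon in KO and 13.5 ± 13.5 in WT (SD, n = 3 each). It stood at 228, 45 and 44 scaled counts in WT 1, WT 2 and WT 3 and at 363, 304 and 273 in KO, in library order as in the values that follow. Every KO library exceeded every WT library, and WT 1 lay nearer to the KO libraries than to WT 2 and WT 3. Wnt10b, a canonical ligand known in marrow for favouring bone formation, was at 33, 9 and 9 in WT against 84, 72 and 57 in KO. Wnt11, mainly a non-canonical ligand, was at 24, 8 and 10 and at 36, 27 and 43. These 3 ligands shared the same order of groups, with log2 differences of 2.0 ± 0.64 (SE) for Wnt5a, 2.24 ± 0.51 for Wnt10b and 1.40 ± 0.43 for Wnt11. Against WT 1 alone the differences were 0.45, 1.07 and 0.51. Wnt9a overlapped between the groups, at 10, 14 and 10 in WT against 22, 9 and 13 in KO, and its difference of 0.28 turned to -0.14 under cyclic loess. Wnt2b, Wnt5b, Wnt6 and Wnt7b did not reach the filter. Wnt7b was at 10 in KO 1 and at 0 in every other library. Wnt5b overlaps Fbxl14 on the opposite strand, and counting by strand is not stated.

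The frizzled receptor genes did not share one direction. Fzd7 was the frizzled gene with the highest level, at 202 ± 42.6 scaled counts per kilobase in WT and 146 ± 16.6 in KO (SD, n = 3), followed by Fzd5 at 51.6 ± 6.96 and 65.2 ± 10.1 and Fzd1 at 29.8 ± 4.29 and 43.5 ± 9.07. Fzd7 stood at 708, 1089 and 953 scaled counts in WT against 623, 609 and 746 in KO. It was the single member lower in KO at an unadjusted p under 0.05 (log2 difference -0.46 ± 0.17, limma adjusted p = 0.177), but WT 1 lay within the KO range, and without WT 1 it passed with an adjusted p of 0.0154. Fzd2, which can transmit Wnt5a signals, showed the opposite order, at 69, 15 and 15 in WT against 171, 148 and 106 in KO. Its log2 difference was 2.42 ± 0.61, or 1.00 against WT 1.

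Fzd1, Fzd4 and Fzd6 were also without overlap. Fzd1 was at 143, 125 and 107 in WT against 224, 175 and 149 in KO, Fzd4, the receptor for norrin in the retina, at 46, 22 and 36 and at 99, 61 and 53, and Fzd6 at 22, 12 and 4 and at 42, 31 and 26. In these 3 genes the lowest KO library and WT 1 were close, 149 against 143, 53 against 46 and 26 against 22. Fzd3, at 81, 11 and 17 in WT against 147, 129 and 70 in KO, and Fzd8, at 95, 37 and 38 and 197, 138 and 82, overlapped through KO 3, which was below WT 1. The log2 differences of Fzd3 and Fzd8 were 2.09 ± 0.74 and 1.34 ± 0.47, and those of Fzd1, Fzd4 and Fzd6 were 0.53 ± 0.18, 1.02 ± 0.35 and 1.54 ± 0.57. Fzd5, at 369, 398 and 304 in WT against 523, 446 and 383 in KO, had a difference of 0.33 ± 0.15 and overlapped.

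The LRP co-receptors were high and differed by small steps. Lrp5 was at 827, 796 and 782 scaled counts in WT against 915, 932 and 992 in KO, a log2 difference of 0.24 ± 0.05 that had the smallest unadjusted p of any member (0.00297, limma) and an adjusted p of 0.158. All KO libraries lay above all WT libraries, WT 1 lay nearer the other WT libraries than the KO libraries, and the difference from WT 1 alone was 0.19. Lrp6 was at 1396, 1259 and 1332 and at 1574, 1601 and 1386, so that KO 3 fell within the WT range. Per kilobase of exon, Lrp6 at 97.2 ± 5.01 in WT was above Lrp5 at 82.3 ± 2.36 (SD, n = 3).

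Secreted Wnt antagonists were higher in the KO mean in all 4 tested genes, against 6510 of all 13260 tested genes, and the groups overlapped in Sfrp1 and Sfrp4. Dkk3, a divergent DKK family member expressed by mesenchymal cells, was the most abundant at 303 ± 43.4 scaled counts per kilobase in KO and 136 ± 110 in WT (SD, n = 3). It stood at 884, 217 and 271 in WT against 1174, 997 and 885 in KO, so the lowest KO library exceeded WT 1 by 1 scaled count. Its log2 difference was 1.44 ± 0.52 over all libraries and 0.19 against WT 1. Dkk2, which binds LRP5 and LRP6, was at 61, 32 and 45 in WT against 84, 88 and 91 in KO, with the KO libraries close together and a difference of 0.96 ± 0.24. Of the SFRP family, whose members bind Wnt proteins in solution, Sfrp4 was at 55, 9 and 7 in WT against 267, 85 and 27 in KO, and Sfrp1 at 6, 20 and 1 and at 82, 35 and 16. Both varied several-fold within KO and overlapped between the groups. Sfrp1 had a log2 difference of 2.48 ± 0.98, and Sfrp4, at 2.39 ± 1.05, did not reach an unadjusted p under 0.05. The difference of Sfrp1 from WT 1 alone was 2.40, close to that from all WT libraries. Sfrp2 was at 2, 3 and 0 in WT against 9, 4 and 4 in KO, below the filter.

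**Figure D2:**
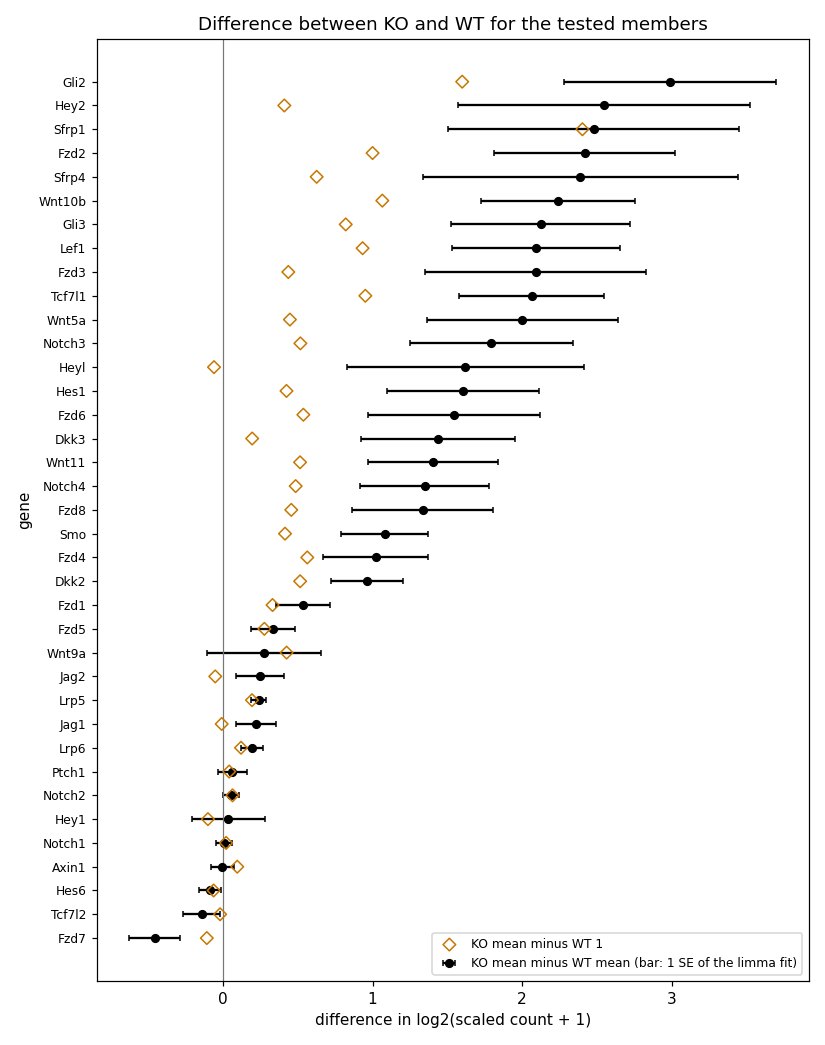
Differences in log2(scaled count + 1) of the 37 tested members, ordered by size: black points are the KO mean minus the WT mean with a bar of 1 SE of the limma fit, open diamonds the KO mean minus WT 1. Gli2 is at the top with 2.99 and Fzd7 at the bottom with -0.46, and most diamonds of the upper genes lie well left of their points, as for Wnt5a at 0.45 against 2.0.

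Inside the cell the axin and TCF/LEF genes were split. Axin1, the scaffold of the destruction complex, was at 627, 750 and 645 in WT against 655, 656 and 699 in KO, with a log2 difference of -0.0047 whose sign depended on the setting. Axin2, a widely used readout of beta-catenin signalling, stayed below the filter at 7, 2 and 4 in WT against 10, 1 and 6 in KO, and the groups overlapped. Of the factors that bring beta-catenin to DNA, Tcf7l2 was at 248, 294 and 271 in WT against 246, 211 and 282 in KO, also overlapping. Tcf7l1, which acts mainly as a repressor, was at 65, 23 and 17 and at 144, 106 and 133, and Lef1 at 38, 7 and 16 and at 63, 74 and 85. For these latter genes every KO library was above WT 1 and the differences were 2.06 ± 0.48 and 2.09 ± 0.56, or 0.95 and 0.93 against WT 1. Tcf7, a factor best known in T cells, was at 5, 3 and 4 in WT against 9, 13 and 14 in KO, without overlap but below the filter. The T cell markers in the table summed to 686, 675 and 686 in WT against 638, 628 and 657 in KO, most of it Cd28, at 497, 531 and 512 against 421, 437 and 422. Lck was at 1 to 9 in every library, and Trac was at 20, 1 and 2 in WT against 31, 15 and 27 in KO, so the markers did not share one direction, and their part in the Tcf7 and Lef1 values was not tested. Per kilobase of exon Tcf7l2 was the highest TCF/LEF gene in WT at 30.9 ± 2.62, and Tcf7l1 reached 32.5 ± 4.98 in KO against 28.1 ± 4.05 for Tcf7l2 (SD, n = 3), a gap within the spread.

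Notch receptors formed a pair at a constant level and a pair that, like the stromal markers, was lowest in WT 2 and WT 3. Notch2 was the highest at 167 ± 5.93 scaled counts per kilobase in WT and 173 ± 7.28 in KO (SD, n = 3), with 1782, 1868 and 1743 scaled counts in WT against 1786, 1860 and 1943 in KO. Notch1 was at 861, 882 and 867 in WT against 825, 871 and 927 in KO, a log2 difference of 0.0056 ± 0.05. Both overlapped between the groups and differed by less than their spread. Notch3, best known in pericytes and vascular smooth muscle, was at 255, 80 and 56 in WT against 452, 335 and 322 in KO. Notch4, best known in endothelium, was at 54, 23 and 20 and at 70, 58 and 108. In both the KO libraries were all above WT 1, with differences of 1.79 ± 0.54 and 1.35 ± 0.43, or 0.52 and 0.49 against WT 1. Beside Notch4, the endothelial markers Kdr and Cdh5 were at 124, 69 and 63 and at 44, 15 and 16 in WT, and at 116, 99 and 129 and at 42, 39 and 29 in KO. Egfl7 was at 12, 11 and 7 in WT against 18, 19 and 19 in KO. Esam, at 8, 7 and 1 against 2, 3 and 3, and Tie1, at 8, 4 and 2 against 7, 1 and 4, did not follow this order. Emcn and Tek were at 0 to 6 in every library and overlapped between the groups. Erg, also very low, was at 0, 1 and 0 in WT against 7, 3 and 2 in KO, without overlap. The part of endothelial markers in the Notch4 difference was not tested.

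Notch ligands were present as Jag1 and Jag2. Jag1 was at 859, 716 and 639 in WT against 819, 782 and 971 in KO, and Jag2 at 240, 187 and 165 and at 215, 220 and 262. Both overlapped, with log2 differences of 0.22 ± 0.13 and 0.25 ± 0.16 that were -0.0091 and -0.05 against WT 1. The delta-like ligands Dll1 and Dll4 were below the filter, between 1 and 14.

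HES and HEY repressors did not share a pattern. Hes1, the most general Notch target, was at 95, 23 and 32 in WT against 150, 120 and 116 in KO, without overlap and with a log2 difference of 1.60 ± 0.51, or 0.42 against WT 1. Hey2 was at 15, 0 and 2 in WT against 23, 19 and 19 in KO, a fitted difference of 2.55 ± 0.98 that was 1.21 with a pseudocount of 8. Heyl was at 120, 11 and 36 and at 114, 94 and 142, so that WT 1 lay among the KO libraries, and its difference from WT 1 was -0.06. Hey1, at 40, 30 and 40 in WT against 48, 29 and 37 in KO, showed no separation, and its difference of 0.03 turned to -0.19 under cyclic loess. Hes6, which opposes HES1 and is the highest of the role per kilobase (106 ± 3.19 in WT and 100.1 ± 4.82 in KO, SD, n = 3), was at 189, 199 and 189 and at 191, 177 and 175. Hes2 was at 0 to 3 in every library.

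Hedgehog members covered a receptor, its transducer and the GLI factors. Ptch1 was at 247, 246 and 238 in WT against 283, 224 and 259 in KO, a log2 difference of 0.06 ± 0.10 with overlapping groups. Smo was at 248 in WT 1, at 124 in WT 3 and 1 scaled count lower in WT 2, against 387, 313 and 299 in KO, without overlap, with a difference of 1.08 ± 0.29 and of 0.41 against WT 1. Ptch1 is itself a usual target of Hedgehog signalling, as is Gli1, which stayed below the filter at 5, 1 and 4 in WT against 2, 5 and 6 in KO. Gli1 overlaps Arhgap9 on the opposite strand, so its few reads may not all be its own. Gli3, the main GLI repressor, was at 78, 15 and 25 in WT against 175, 158 and 96 in KO, and Gli2, the main activator, at 5, 0 and 1 and at 20, 21 and 12. All KO libraries lay above all WT libraries for both, with differences of 2.12 ± 0.60 for Gli3 and 2.99 ± 0.71 for Gli2. The fitted difference of Gli2 rests on very low WT values and was 1.37 with a pseudocount of 8. Against WT 1 alone, Gli2 differed by 1.60 and Gli3 by 0.82.

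**Figure D3:**
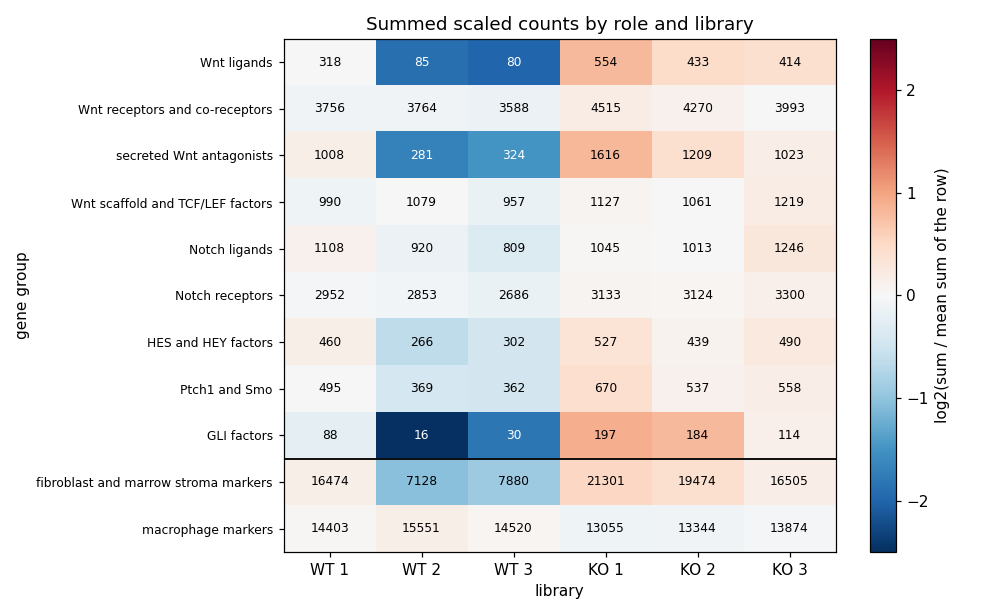
Summed scaled counts of the members of each role (upper 9 rows, all 48 members) and of the fibroblast and marrow stroma and macrophage markers (lower 2 rows) in each library, printed in the cells, with colour giving the log2 ratio to the row's mean. Wnt ligands, secreted antagonists and GLI factors are lowest in WT 2 and WT 3 (85 and 80 for the ligands), as are the stromal markers, while macrophage markers lie between 13055 and 15551.

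Wnt ligands summed to 318, 85 and 80 in WT and to 554, 433 and 414 in KO, and GLI factors to 88, 16 and 30 and to 197, 184 and 114. Notch receptors, carried by Notch1 and Notch2, summed to 2952, 2853 and 2686 in WT and to 3133, 3124 and 3300 in KO. All 48 members together took 0.191%, 0.166% and 0.158% of the scaled counts in WT and 0.23%, 0.211% and 0.217% in KO. Macrophage markers summed to 14403, 15551 and 14520 in WT and to 13055, 13344 and 13874 in KO. Each of these KO sums, the macrophage one excepted, was above every WT sum, and each macrophage sum in KO was below every WT sum. The macrophage markers include Lyz2, the gene in which Cre is placed in KO, at 1068, 1144 and 1055 in WT against 930, 942 and 953 in KO.

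The wider Wnt machinery, from porcupine and beta-catenin to R-spondins and TLE corepressors, held genes of both kinds. Of 49 tested genes out of 61 listed, 20 were higher and 1, the corepressor gene Tle4, was lower at an unadjusted p under 0.05, against 14.7% and 9.68% of all tested genes, 0 passed after adjustment, and the median difference was 0.20. Ctnnb1, which encodes beta-catenin, was at 1755, 1816 and 1712 in WT against 1663, 1753 and 1716 in KO. Apcdd1, a membrane inhibitor of Wnt signalling, was at 15, 15 and 12 in WT against 48, 31 and 36 in KO. Here WT 1 stood with the other WT libraries, and the difference was 1.38 ± 0.24 over all of WT and 1.28 against WT 1. Bcl9l, a beta-catenin cofactor, was at 558, 475 and 423 and at 841, 683 and 677, and Znrf3, a ligase that removes frizzled receptors, at 199, 172 and 173 and at 238, 240 and 230. Of 9 tested Wnt target genes 6 were higher and 1, the hyaluronan receptor gene Cd44, was lower at an unadjusted p under 0.05, against 14.7% and 9.68% of all tested genes, with a median of 1.38. The 6 higher genes were Apcdd1 and Znrf3, which both lists hold, Ccn4, Ccn5, Twist1 and Nkd1. Ccn4 was at 551, 101 and 141 in WT against 1002, 881 and 729 in KO. Ccn5 was at 168, 27 and 17 against 444, 322 and 127, and Twist1 at 46, 5 and 10 against 97, 82 and 63. WT 2 and WT 3 were lowest in 5 of the 9 target genes (55.6%), against 20.9% of all tested genes. Against WT 1 alone the list's median was 0.64. Nkd1, a feedback inhibitor, was at 8, 0 and 1 in WT against 31, 17 and 14 in KO. Nkd1, counted in both Wnt lists, passed the filter through the KO libraries alone. Myc and Ccnd1, common targets of many pathways, were at 444, 437 and 382 and at 2190, 2261 and 2076 in WT, and at 434, 398 and 460 and at 1887, 1880 and 2099 in KO, overlapping in each case.

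The wider Notch machinery was centred near 0. Of 35 tested genes out of 39 listed, 5 were higher and 2, Numb and the gamma-secretase subunit gene Aph1c, were lower at an unadjusted p under 0.05, 0 passed after adjustment, and the median was -0.03. With 14.7% of all tested genes higher and 9.68% lower, the count on the higher side was near the background. Rbpj, the DNA-binding partner of cleaved Notch, was at 833, 816 and 745 in WT against 789, 855 and 826 in KO, overlapping. Numbl, related to the Notch inhibitor Numb, was at 245, 195 and 171 and at 327, 301 and 288, Dtx3, of the deltex family, at 222, 252 and 216 and at 287, 286 and 321, and Mfng, a fringe enzyme that adds sugar to Notch, at 81, 64 and 56 and at 109, 90 and 92. All 3 were without overlap, with differences of 0.60 ± 0.14, 0.37 ± 0.09 and 0.54 ± 0.17. Dtx3 differed from WT 1 alone by 0.42, as WT 1 lay within the range of the other WT libraries.

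Hedgehog machinery lay mostly on the higher side. Of 19 tested genes out of 26 listed, 10 were higher and 0 lower at an unadjusted p under 0.05, against 14.7% and 9.68% of all tested genes, 0 passed after adjustment, and the median was 0.36. WT 2 and WT 3 were the lowest libraries in 12 of the 19 genes (63.2%), against 20.9% of all tested genes. WT 1 lay between them and KO in 11 (57.9%), against 12.5%. Against WT 1 alone the median was 0.23. Tulp3, which brings receptors into cilia, was at 259, 251 and 236 in WT against 353, 366 and 349 in KO, a difference of 0.52 ± 0.06 and of 0.46 against WT 1, with the WT libraries close together. Kif7, a ciliary kinesin that regulates GLI factors, was at 68, 36 and 43 and at 116, 95 and 102, and Scube3, a secreted protein of the family that releases Hedgehog ligands, at 78, 59 and 50 and at 97, 120 and 126. Sufu, which restrains GLI factors, was at 420, 444 and 397 and at 459, 458 and 488, all of KO above all of WT.

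**Figure D4:**
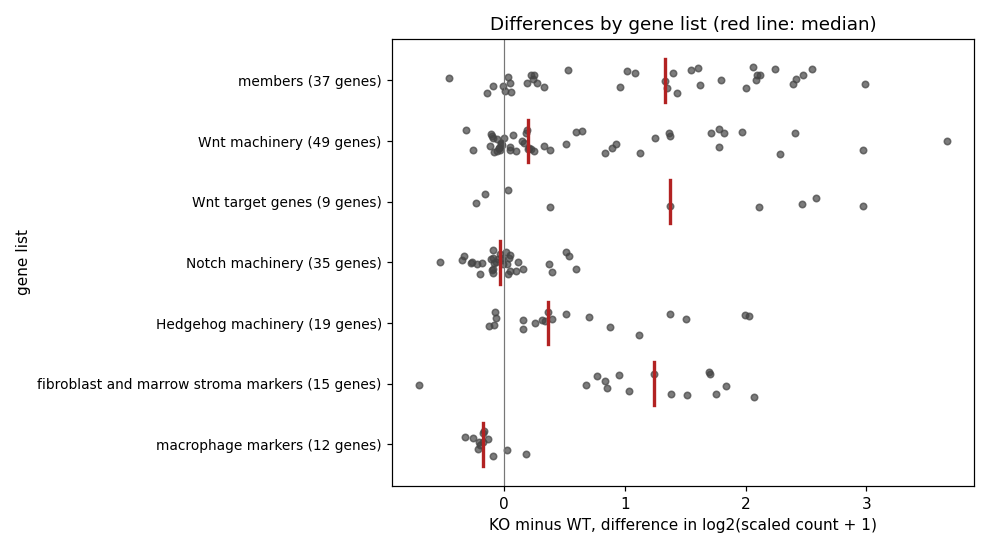
KO minus WT difference in log2(scaled count + 1) of each tested gene (points, spread vertically at random within a row) in the 37 members, the wider pathway lists and 2 marker lists, with the median as a red line. The medians are 1.34 for the members, 1.24 for 15 fibroblast and marrow stroma markers, -0.03 for the Notch machinery and -0.18 for the macrophage markers.

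Beside these gene groups, the KO mean exceeded the WT mean in 14 of 15 tested stromal markers, with a median difference of 1.24. It was below the WT mean in 10 of 12 macrophage markers, Lyz2 among them, with a median of -0.18. Of all 13260 tested genes, 6510 lay on the higher side and 6750 on the lower. Among the stromal markers, Lum and Lepr were at 0 to 11 in every library, and Kitl was lower in KO, at 680, 540 and 806 in WT against 431, 448 and 353 in KO. Against WT 1 alone the stromal median was 0.35 and that of the members 0.42. Endothelial markers summed to 205, 107 and 92 in WT against 198, 174 and 187 in KO, osteoblast markers to 436, 385 and 366 against 632, 477 and 432, and B cell markers, mostly Ebf1, to 248, 54 and 65 against 348, 310 and 281. By pathway, the members' median against WT 1 was 0.45 for Wnt, 0.02 for Notch and 0.62 for Hedgehog, compared with 1.37, 0.25 and 1.60 against all WT libraries. The Hedgehog medians rest on 4 tested members, among them Gli2, which passed the filter through the KO libraries alone.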

How the data were processed

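RNA-seq of 3 WT and 3 KO libraries was available. Per the labels' protocols, libraries were made with a strand-specific mRNA kit and read from one end. The submitters' processing notes name, without role or order, the build mm10 and the tools DESeq2 1.36.0, featureCounts 2.0.3, STAR 2.7.10a, Trimmomatic 0.39 and Picard 2.27.4; whether counting used strand is not stated. The deposited values were read as a score: counts that the authors scaled per library and rounded, since the totals are nearly equal and whole numbers are skipped at regular steps. Exact reads and depth are therefore unknown, no count model was run and no counting interval is given.

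The 13260 genes that reached 10 in 3 or more libraries entered a two-sided limma 3.58.1 fit (R 4.3.3) of log2(value + 1) on group, with prior variance following the mean level. Benjamini-Hochberg adjustment ran over all of them, with a threshold of 0.05. Alternatives were a pseudocount of 8, no filter, a stricter filter, upper-quartile and cyclic loess rescaling, no trend, the replicate block and leaving out libraries. This scale understates the change of low genes. The fit was tested on simulated data with each gene's mean and within-group spread, in which 200 of 13260 genes differed. With all 6 libraries it found 67% of the 2-fold and 89% of the 4-fold changes and made 6 false calls. Without WT 1 it found 57% and 81% and made 13 false calls. The simulated scatter was drawn independently for each gene and library, with a spread common to both groups that included WT 1. In the data WT 1 stood apart from WT 2 and WT 3 in many genes at once. These shares therefore do not give the power or the error rate of the fits reported here. Exonic lengths come from GENCODE M21, where 47 of the 48 members had the deposited start and end. Python 3.11.15 and pandas 2.3.3 were used for lengths and promoters.

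Members, gene lists and tests were chosen with earlier results of these data known. Library values are given for each member with an unadjusted p under 0.05 and the highest member of each role, and for the 3 genes with the smallest p of each wider list. Other genes with library values were chosen after their values were seen, as were the 6 promoters.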

Additional observations from a re-analysis of the deposited data

How the results depend on the processing

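Only the fit without WT 1 gave calls at an adjusted p under 0.05: 20 members higher, 1 lower and 2363 of all tested genes. All 3 counts were 0 with all 6 libraries and under each other alternative, so over the fits that leave out 1 library they ranged from 0 to 20, from 0 to 1 and from 0 to 2363. At an unadjusted p under 0.05, limma gave 26 members higher without WT 1 (18.7% of all tested genes), 12 without WT 2 (9.63%), 11 without WT 3 (8.18%), 10 without KO 1 (7.19%), 15 without KO 2 (8.35%), 20 without KO 3 (12.6%) and 7 without WT 2 and WT 3 together (5.17%), against 23 (14.7%) with all libraries. That last fit leaves WT 1 alone and assumes that it varies as the KO libraries do. Under a filter on mean values of 100 or more, 17 members were tested and 7 were higher (10.9% of all tested genes). Whether the replicate numbers pair the libraries is not known. Deviations from the group mean correlated at 0.534, -0.364 and 0.0238 for numbers 1, 2 and 3. Such deviations sum to 0 within a group of 3, so these correlations cannot decide it. In limma the replicate block gave 0 members called after adjustment. At an unadjusted limma p under 0.05 it gave 24 members higher (13.9% of all tested genes) and 1 lower. Over all tested genes 2744 passed that level in either direction, 1846 of them higher.

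Of 498 recomputed differences of the 37 tested members, 459 kept their sign and their side of the threshold, 21 passed it, all without WT 1, and 18, in 8 genes, changed sign. Axin1 turned to 0.0058 under upper-quartile rescaling, 0.041 under cyclic loess and 0.095 without WT 2 and WT 3, and ranged from -0.055 to 0.0745 when 1 library was left out. Hey1 turned to -0.19 under cyclic loess and -0.10 without WT 2 and WT 3, and ranged from -0.15 without KO 1 to 0.21 without KO 2. Wnt9a turned to -0.14 under cyclic loess and ranged from -0.044 without KO 1 to 0.56 without KO 2. Leaving out 1 library, Notch1 ranged from -0.037 to 0.047, with -0.0019 without WT 1, and Ptch1 from -0.016 to 0.15. Without WT 2 and WT 3, Jag1 was at -0.0091, Jag2 at -0.052 and Heyl at -0.060. The cause of these sign changes was not tested. A pseudocount of 8 in place of 1 gave 1.57 for Sfrp1, 1.37 for Gli2, 1.21 for Hey2 and 1.41 for Nkd1. Leaving out 1 library gave 0.79 for Heyl and 1.62 for Hey2 without WT 2, 0.95 for Fzd6 and 1.61 for Sfrp1 without WT 3, and 1.57 for Sfrp4 without KO 1.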
